A study of Mus musculus with 4 samples.

Results

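The genes described here are 10 members and known targets of the integrated stress response, namely Ddit3, Atf3, Cebpb, Ppp1r15a, Ddit4, Sesn2, Psph, Aldh18a1, Shmt2 and Stc2. They were taken by symbol from the authors' sheet of called probes, in which 11 probes carry their names, of 9190 probes with 1 symbol that stand for 8519 genes. Levels were read on 4 single-colour arrays of 26423 probes from C17.2 cells, an immortalised line of mouse multipotent neural progenitors. Both groups received 7.38 mM AAPH, an azo compound that releases peroxyl radicals, for 12 h, and 2 of the 4 arrays came from cells given 1.69 µM berberine, a plant alkaloid, in addition. The group without berberine (2 arrays) is called AAPH alone. It is itself damaged, so that a lower level with berberine is a difference from damaged cells, and undamaged cells are not analysed here. All cultures came from 1 cell line, and nothing in the labels says that the arrays of a group came from separate cultures, so p-values measure only the spread between these arrays, which may be technical.

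In the integrated stress response, kinases that sense oxidants, misfolded proteins, double-stranded RNA or a lack of amino acids phosphorylate the translation factor eIF2. Most protein synthesis then slows, while the mRNA of the transcription factor ATF4 is translated better. ATF4 and its partners raise genes for amino acid synthesis and transport, tRNA charging and redox defence, and under lasting stress CHOP, the product of Ddit3, promotes cell death. In neural cells this response accompanies hypoxia, oxidative injury and protein misfolding.

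With berberine, 8 of the 10 genes had a lower signal on their named probe, Ppp1r15a had a higher one, and Shmt2 was lower on 1 probe and higher on the other. The median difference over the 11 probes was −2.84 on the log2 scale, against 0.39 over all probes and 1.22 over all named genes. In limma's fit over all probes with Benjamini-Hochberg adjustment, 9 of the 11 probes passed at 0.05 as lower and 2 as higher. Of all 26423 probes, 22.5% were called lower and 40.2% higher, and of the 8519 named genes 99.7% were called, 44.1% as lower and 55.6% as higher. A probe has a name only because the authors had called it changed on these arrays, so that the passing of all 11 was close to fixed beforehand. Differences are berberine minus AAPH alone on quantile-normalized log2 intensities, each with its standard error from the fit and 2 arrays per group. In bulk RNA, fewer cells that express a gene and less RNA per cell cannot be told apart.

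The array medians were 333 and 273 for AAPH alone and 189 and 206 with berberine, and handling of the 2 groups cannot be told apart from berberine. Quantile normalization moved the median difference of all probes to 0.39, against 0.13 on the values as deposited, 0.74 after median centring and −0.01 after cyclic loess. It called 10635 probes higher and 5943 lower. The values as deposited called 33.2% of all probes, 13.4% as higher and 19.8% as lower, and cyclic loess called 48.2%, 21.4% as higher and 26.8% as lower, while 9 member probes were lower and 1 higher under either. Where the authors' detection p-value of a group was 0.01 or more, the probe is called at background there. No member probe was at background with AAPH alone, and 4 of the 11 were with berberine (Atf3, Sesn2, Psph and Aldh18a1). Of the 8519 named genes, 16.6% were detected with AAPH alone and at background with berberine. For these probes a fall is given as "at least N-fold", the mean of the bright group over the higher of the probe's own signal and the lowest signal detected on that array.

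**Figure D1:**
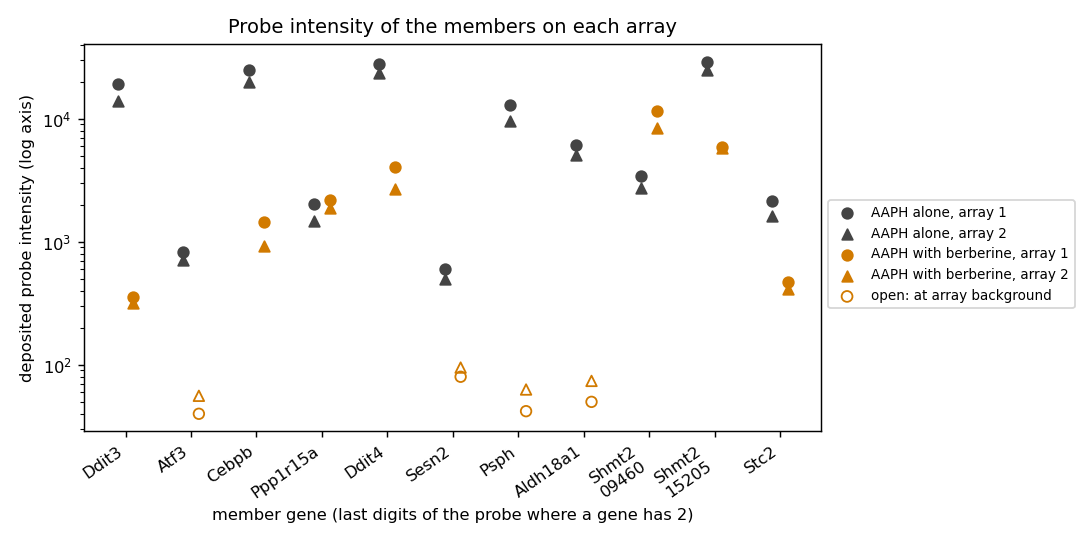
Deposited probe intensity (log axis) of the 11 member probes, with 2 arrays of AAPH alone (grey) and 2 of AAPH with berberine (orange), and open symbols for probes at array background with berberine. The berberine arrays lie below both AAPH-alone arrays for 9 probes, above them for Shmt2 probe PH_mM_0009460, and for Ppp1r15a 1 lies above both and 1 between them.

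The 3 transcription factors fell. Ddit3 encodes CHOP, a bZIP factor that dimerises with C/EBP proteins and raises pro-death genes. Its probe read 19297 and 14040 with AAPH alone and 355 and 316 with berberine. The lowest AAPH-alone array was far above both berberine arrays, and the probe stayed above background in both groups. The difference was −5.29 ± 0.157, a 39.1-fold fall (adjusted p = 0.000219). Across the scalings between arrays it ran from −5.01 after median centring to −5.67 after cyclic loess.

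Cebpb encodes C/EBPβ, a bZIP factor of differentiation and inflammation that partners both ATF4 and CHOP. Intensities of 24886 and 19847 with AAPH alone stood against 1436 and 931 with berberine. The groups did not overlap, although after quantile normalization the berberine arrays differed by log2 0.47, the widest gap between replicates among the member probes. The fall was 14.97-fold (−3.90 ± 0.202, adjusted p = 0.000569).

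Atf3 encodes an early-response factor of the ATF/CREB family that ATF4 induces. Its probe read 820 and 710 with AAPH alone and 40 and 56 with berberine, where the detection p-value was 0.579. The fitted difference of −3.54 ± 0.136 (adjusted p = 0.00034) rests on background signal in the berberine group, and by the bound the fall was at least 4.11-fold.

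The promoter windows of Ddit3 and Atf3 are shown because these factors belong to the response and fell together. Each runs from 250 bases before to 50 bases after the RefSeq transcription start (build GRCm38.p6), at chr10:127290543-127290842, plus strand, and chr1:191183284-191183583, minus strand. Capitals mark motif matches on either strand, which overlap nowhere in the windows shown. The motifs are the CARE core TGATGNAA (the element that ATF4 with a C/EBP partner binds) and the cyclic AMP response element TGACGTCA. The others are the C/EBP-like pattern TTGCNNAA and the CCAAT box CCAAT.
Ddit3: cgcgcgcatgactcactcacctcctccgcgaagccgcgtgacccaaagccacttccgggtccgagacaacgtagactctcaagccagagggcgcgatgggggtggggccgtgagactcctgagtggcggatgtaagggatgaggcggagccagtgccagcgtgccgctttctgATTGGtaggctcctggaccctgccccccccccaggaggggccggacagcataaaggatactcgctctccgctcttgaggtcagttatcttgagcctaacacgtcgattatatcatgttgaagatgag
Atf3: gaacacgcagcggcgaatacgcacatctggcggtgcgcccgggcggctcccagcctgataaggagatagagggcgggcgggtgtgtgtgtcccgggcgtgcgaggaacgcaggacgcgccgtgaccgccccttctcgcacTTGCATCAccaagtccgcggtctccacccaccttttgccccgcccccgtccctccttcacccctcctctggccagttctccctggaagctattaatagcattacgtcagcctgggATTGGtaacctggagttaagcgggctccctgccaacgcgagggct

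In the Ddit3 window the capitals mark a CCAAT box on the reverse strand, which begins 77 bases before the start. In the Atf3 window they mark a CARE core on the reverse strand (TTGCATCA), which begins 110 bases before the start, and a CCAAT box at base 6 of the transcript. RefSeq windows were found for all 10 genes. The CARE core occurred in the window of 1 of the 10, against 3.97% of 32851 windows of the same length, and the CCAAT box in 6 of the 10, against 37.4%. The C/EBP-like pattern TTGCNNAA occurred in 0 of the 10, against 10.8%. The window of Cebpb, which also fell, held none of the motifs listed above and is not shown. No match in a window says only that these letters are not in those 300 bases.

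Ppp1r15a encodes GADD34, the inducible subunit that directs protein phosphatase 1 to eIF2 and so restores translation. Its probe read 2027 and 1489 with AAPH alone and 2170 and 1876 with berberine. These deposited intensities overlap, the only such case among the 11 probes, while 66.9% of all probes had groups that did not overlap and 31.6% had both berberine arrays below both others. After quantile normalization the arrays read log2 10.26 and 10.12 against 11.42 and 11.41, and the probe passed as higher (1.22 ± 0.120, adjusted p = 0.00222). It did not pass on the values as deposited (0.22 ± 0.272, adjusted p = 0.601) or after cyclic loess (0.24 ± 0.141, adjusted p = 0.232). Relative to the median of all probes, the difference was 0.83 with quantile normalization, 0.08 both with median centring and on the values as deposited, and 0.24 with cyclic loess. The window of Ppp1r15a, at chr7:45526219-45526518, minus strand, is shown because it was the only 1 of the 10 with the cyclic AMP response element TGACGTCA, which begins 12 bases before the start and reads the same on both strands. That element occurred in 1.79% of all windows.
Ppp1r15a: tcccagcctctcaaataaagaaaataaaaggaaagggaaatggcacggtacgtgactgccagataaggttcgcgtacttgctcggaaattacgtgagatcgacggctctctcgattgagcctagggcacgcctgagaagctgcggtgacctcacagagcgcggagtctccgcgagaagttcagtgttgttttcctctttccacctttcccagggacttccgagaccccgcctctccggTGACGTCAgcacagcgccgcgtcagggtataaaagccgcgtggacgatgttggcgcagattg

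Ppp1r15b encodes CReP, the constitutive partner of the same phosphatase, and was named here after its values were seen. It read 16306 and 13149 with AAPH alone and 31 and 76 with berberine, at background, a fall of at least 115-fold (adjusted p = 0.000291). The 2 eIF2-directing subunits thus differed in their direction under quantile normalization, and under each of the other scalings Ppp1r15b passed as lower.

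Ddit4 and Sesn2 encode REDD1 and sestrin 2, which restrain the growth kinase complex mTORC1 under stress. Ddit4 read 27945 and 23621 with AAPH alone and 4047 and 2680 with berberine. It stayed above background, with every berberine array below every AAPH-alone array, and fell 7.18-fold (−2.84 ± 0.148, adjusted p = 0.000573). Sesn2 read 601 and 503 against 80 and 95. It was at background with berberine (detection p-value 0.131), and its fall was at least 3.08-fold, from a fitted −2.11 ± 0.122 (adjusted p = 0.000689).

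Of the amino acid enzymes, Psph and Aldh18a1 went from a clear signal to background. Psph, the phosphatase of the last step of serine synthesis, read 12908 and 9613 with AAPH alone and 42 and 63 with berberine. The probe was at background in the berberine group, and the bound gave a fall of at least 83.4-fold (fitted −7.73 ± 0.130, adjusted p = 0.000186). Aldh18a1 makes the glutamate-derived precursor of proline and ornithine. It went from 6131 and 5066 to 50 and 74, again at background, a fall of at least 35.1-fold (fitted −6.22 ± 0.109, adjusted p = 0.000186). In both genes the gap between groups was far wider than that between arrays of a group, at most log2 0.16 after quantile normalization.

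The promoter window of Psph, at chr5:129787204-129787503, minus strand, is shown for an ATF4 target that went from a clear signal to background. Its capitals mark CCAAT boxes on the reverse strand that begin 78 and 48 bases before the start.
Psph: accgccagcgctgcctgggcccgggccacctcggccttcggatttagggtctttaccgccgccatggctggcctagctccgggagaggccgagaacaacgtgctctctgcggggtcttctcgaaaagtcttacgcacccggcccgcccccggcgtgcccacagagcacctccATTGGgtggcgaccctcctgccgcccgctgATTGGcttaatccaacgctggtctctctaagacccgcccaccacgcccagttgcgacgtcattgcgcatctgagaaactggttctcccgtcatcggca

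Shmt2, the mitochondrial enzyme that splits serine into glycine and a one-carbon unit, gave opposite readings on its 2 named probes. Both are annotated to the same pair of RefSeq transcripts. Probe PH_mM_0015205 read 29162 and 24811 with AAPH alone and 5934 and 5752 with berberine, and fell 4.72-fold (−2.24 ± 0.133, adjusted p = 0.000724). Probe PH_mM_0009460 read 3441 and 2734 with AAPH alone and 11542 and 8378 with berberine, and rose 4.58-fold (2.19 ± 0.121, adjusted p = 0.000629). All 4 group means were above background, and each probe kept its direction and its call under all 4 scalings. The mean of both probes differed by −0.02 (adjusted p = 0.875). No single direction can be given for the Shmt2 transcript from these readings.

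Stc2 encodes stanniocalcin 2, a secreted glycoprotein that ATF4 induces during ER stress. Its probe read 2165 and 1629 with AAPH alone and 474 and 417 with berberine. The groups did not overlap, yet quantile normalization gave the difference closest to 0 among the member probes (−1.01 ± 0.142, adjusted p = 0.00573). The values as deposited gave −2.08 ± 0.263 (adjusted p = 0.00937), cyclic loess −1.86 ± 0.152 and median centring −1.47 ± 0.185. Without the first AAPH-alone array the adjusted p was 0.0497.

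**Figure D2:**
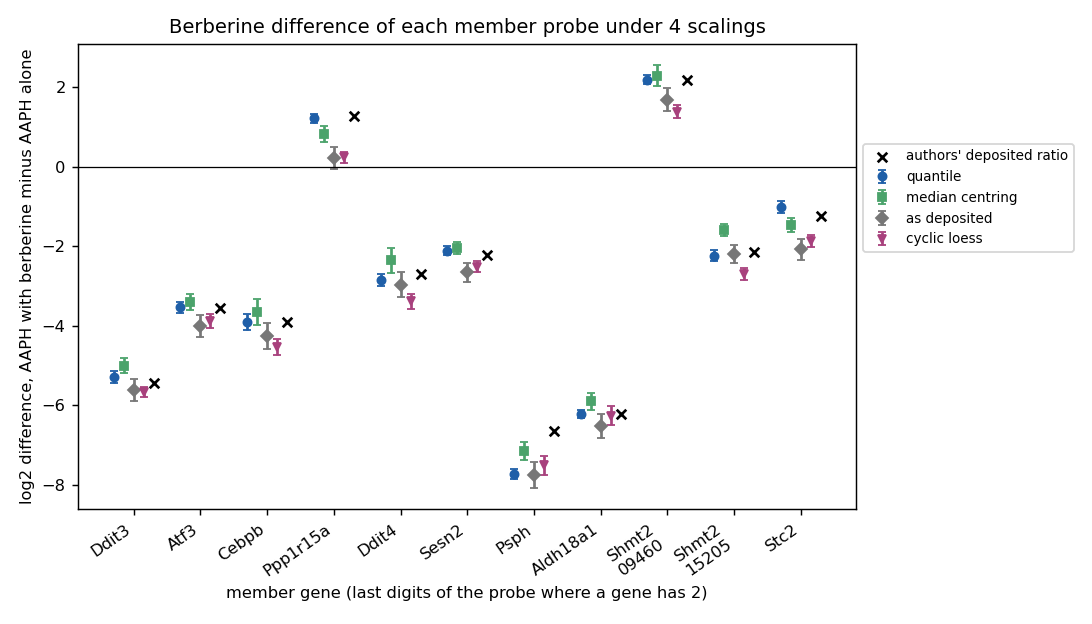
Log2 difference of each member probe, berberine minus AAPH alone, under quantile normalization (blue), median centring (green), values as deposited (grey) and cyclic loess (purple), with bars of 1 standard error, and the authors' deposited ratio (cross). The 9 lower probes stay below 0 under each scaling, Shmt2 probe PH_mM_0009460 stays above 0, and Ppp1r15a lies between 0.22 and 1.22.

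Beyond the scalings, the member probes were tested without dim probes, with another floor, with an intensity trend and with each array left out. Except where an array was left out, the log2 differences there were the same as before, so only their p-values could change. The 9 falls and the rise of Shmt2 probe PH_mM_0009460 passed each time the probe was in the fit. The probes of Atf3 and Sesn2 fell under the brightness filter and were not tested there. Over all member probes, the arrays of a group differed by at most log2 0.21 with AAPH alone and 0.47 with berberine after normalization, which is less than the smallest difference between groups.

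In the authors' deposited table, the ratios of the members had the same signs as here. They ran from −6.64 for Psph, which is the lowest ratio in that table and shared by 209 probes, to 2.18 for Shmt2 probe PH_mM_0009460. The ratio for Ppp1r15a was 1.28 in the authors' deposited table, while the log2 of its own mean intensities there (1748 and 2023) was 0.21. Over the whole of the authors' deposited table the ratio exceeded the log2 of the means by a median of 0.54. The labels and headers do not say how that ratio was computed.

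The authors' deposited table of biological processes listed all 10 genes under at least 1 of its 406 terms. There, 49 terms held a member, 18 of them with Benjamini q under 0.05. The lowest q of these in the authors' deposited table was for DNA-templated transcription (3.6e-36), with 1008 of 1885 genes called. The terms given below were not those with the lowest q. In the authors' deposited table, the term for the ER unfolded protein response held Atf3, Ddit3, Ppp1r15a and Stc2, with 34 of its 48 genes called (Benjamini q = 0.00615). In the authors' deposited table, the term for the response to ER stress held Cebpb, Ddit3, Ppp1r15a and Stc2, with 48 of 76 genes called (q = 0.00906), and that for cellular response to amino acid starvation held Atf3, with 17 of 27 called (q = 0.69).

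Around the 10 genes, 7 lists of the response held 116 genes, of which 81 had a named probe. Only probes that the authors had called have names, so genes without one may have been on the array and unchanged. Of the 81 genes, 53 passed as lower and 28 as higher, with a median of −2.11. Without the 10 genes, 44 of 71 were lower and 27 higher (median −1.71). Among all named genes 3754 were lower and 4739 higher. The values as deposited gave 51 lower and 17 higher for the 81 genes. Atf4 itself has no named probe and is not analysed here.

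All 4 eIF2 kinases had a higher signal with berberine, and the named subunits of eIF2 and of its exchange factor eIF2B had a lower one. Among all named genes 55.6% were higher and 44.1% lower, with a median of 1.22. That median was above the rise of Eif2ak1 and not far below those of Eif2ak3 and Eif2ak4. In the list of eIF2 kinases, eIF2, eIF2B and phosphatase subunits, 10 of 15 named genes fell and 5 rose (median −3.30). The kinases, which were singled out after their values were seen, rose by 1.18 ± 0.141 for Eif2ak1 (HRI, which senses haem and mitochondrial stress), 2.75 ± 0.116 for Eif2ak2 (PKR, which senses double-stranded RNA), 1.46 ± 0.188 for Eif2ak3 (PERK of the ER) and 1.71 ± 0.118 for Eif2ak4 (GCN2, which senses uncharged tRNA). Eif2ak3 lost its call on the values as deposited (0.93, adjusted p = 0.122) and after cyclic loess (0.64, adjusted p = 0.106), and the other 3 kept theirs under all 4 scalings. Eif2b1, a regulatory subunit of eIF2B, went from 12152 and 10404 to 130 and 145 (−6.14 ± 0.117). Its normalized berberine mean of log2 7.32 was near the lowest signals detected on those arrays, 7.31 and 6.81. Eif2b5, the catalytic subunit of eIF2B, was at background with berberine and at least 20.8-fold lower. Ppp1ca, the catalytic subunit of the eIF2 phosphatase and of other phosphatase 1 enzymes, fell by 5.17 ± 0.139 on the log2 scale. The genes of the eIF2 trimer, Eif2s1, Eif2s2 and Eif2s3x, also singled out after their values were seen, had differences of −1.11, −1.70 and −3.30. The second named probe of Eif2s2 gave −4.94. Scaling moved these sizes while each stayed lower, with Eif2s1 at −2.10 on the values as deposited and the brighter Eif2s2 probe at −0.64 after median centring.

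Among ATF4's partners and regulators, 6 of 8 named genes fell and 2 rose (median −2.60), against 44.1% lower among all named genes. Nfe2l2, the NRF2 factor of antioxidant genes, went from 12519 and 9503 to 954 and 899 (−3.00 ± 0.120, adjusted p = 0.000365). The AP-1 factor Jund rose by 2.65 ± 0.151 and Btrc, an F-box protein of the ubiquitin ligase that degrades ATF4, by 2.07 ± 0.117. All 8 kept direction and call under the 4 scalings.

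Of all named genes 44.1% were lower. In serine, glycine, one-carbon and proline synthesis, 7 of 9 named genes fell and 2 rose (median −2.63), also under each scaling. Shmt2 is counted there as a fall by its brighter probe alone, and with the mean of each gene's named probes 6 fell and 2 rose. Without the first AAPH-alone array 1 of the 2 rises passed. Pycrl, a pyrroline-5-carboxylate reductase of proline synthesis, was at least 123-fold lower, and Cth, which makes cysteine from cystathionine, fell by 3.82 ± 0.112. Mthfd1l, a mitochondrial formate-producing enzyme, fell by 2.63 ± 0.134 on its brightest probe. Of its 4 named probes 3 fell, and PH_mM_0000845, at background with AAPH alone, rose. The asparagine and serine genes Asns, Phgdh and Psat1 have no named probe.

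Of 8 named amino acid transporters 6 rose and 2 fell, against 55.6% higher among all named genes. Their median of 1.29 was near the median of 1.22 of all named genes. With the mean of each gene's named probes, 5 were higher and 3 lower. Slc3a2, the heavy chain shared by several exchangers, rose by 1.78 ± 0.147, the cationic transporter Slc7a3 by 1.61 ± 0.120 and the glutamine carrier Slc38a1 by 1.68 ± 0.124 on its brightest probe, while its other 2 probes fell. On the values as deposited these 3 genes kept their sign and lost their call, leaving 3 rises, and with cyclic loess all 6 passed.

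The cytosolic aminoacyl-tRNA synthetases, which charge tRNAs with amino acids, fell in 12 of 15 named genes and rose in 3 (median −2.47). Among all named genes 44.1% were lower and 55.6% higher. Of the 3 rises, Aars was at background with AAPH alone and among the scalings passed only under quantile normalization. Farsb of phenylalanine charging went from 50159 and 45945 to 358 and 378 (−6.80 ± 0.122). Wars fell by 5.05 ± 0.195, and Vars was at background with berberine and at least 79.4-fold lower. Median centring left 11 of the falls.

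The stress effectors and feedback genes were evenly split, with 6 of 12 named genes lower and 6 higher (median 0.09). Of all named genes 44.1% were lower and 55.6% higher. Cdkn1a, which encodes the p21 brake on the cell cycle, fell by 3.10 ± 0.111. Vegfa, the angiogenic factor that ATF4 can induce, rose by 2.20 ± 0.139, from 10357 and 9452 to 53110 and 49566. The BH3-only death gene Bcl2l11 rose by 1.91 ± 0.130. On the values as deposited the split was 5 lower and 2 higher, and the list's median turned to −0.53. It was −0.80 with cyclic loess, where 6 were lower and 3 higher.

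In the other branches of the unfolded protein response, 10 of 15 named genes fell and 5 rose (median −1.74). Among all named genes 44.1% were lower. The chaperone Hspa5 (BiP) went from 82854 and 75629 to 464 and 528 (−7.06 ± 0.141), the disulfide isomerase Pdia4 fell by 6.57 ± 0.121, and the co-chaperone Dnajb11, at background with berberine, was at least 28.9-fold lower. Xbp1, the spliced effector of the IRE1 branch and also singled out later, fell by 1.74 ± 0.113 but did not pass after median centring. Median centring left 7 falls and 5 rises (median −0.91), and the values as deposited 9 falls and 3 rises.

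**Figure D3:**
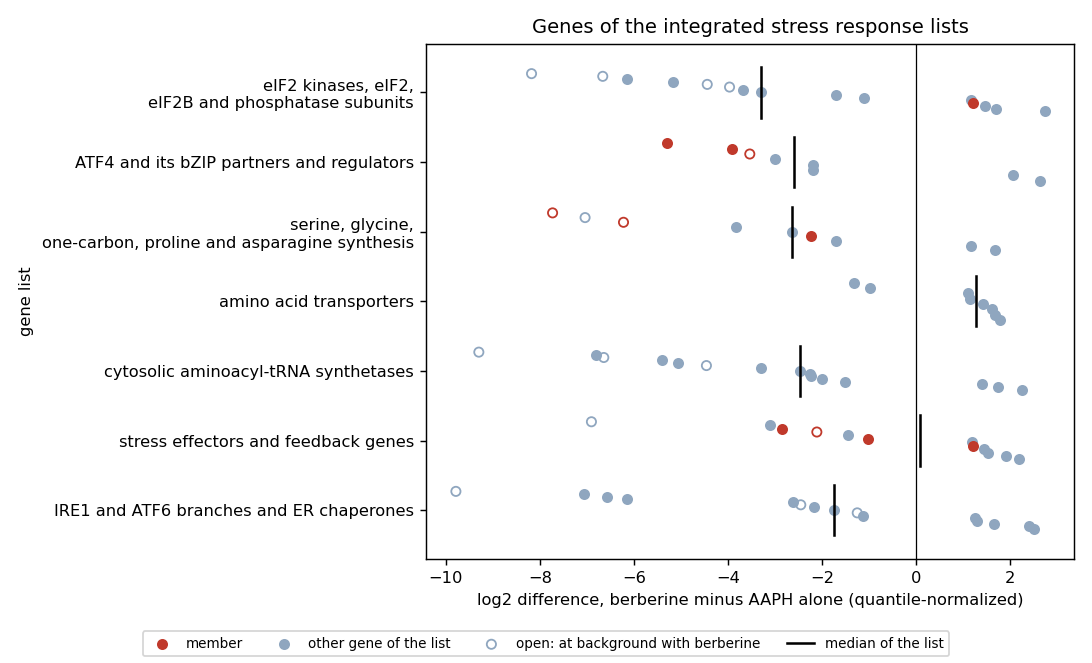
Log2 difference of every gene with a named probe in 7 lists of the integrated stress response, berberine minus AAPH alone after quantile normalization. Members are in red and other genes in blue-grey, with open circles at background with berberine and a black bar at the list's median. Medians run from −3.30 for the eIF2 machinery to 1.29 for amino acid transporters.

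Markers were set beside the labelled cell type. Of 14 neural stem and progenitor markers 7 had a named probe and all 7 were detected with AAPH alone, among them Sox9, Hes1 and Bmi1. Nes, Sox2, Vim and Pax6 have no named probe. All named markers of the neuron, astrocyte, endothelial and fibroblast lists were detected with AAPH alone too, so detection cannot tell these cell types apart. With berberine 5 of the 7 progenitor markers fell and 2 rose, and 3 of them were at background (Sox9, Hes1 and Id4). The summed deposited intensity of the progenitor markers went from 21138 and 18304 to 4019 and 4412. Among all named genes 55.6% were higher and 44.1% lower, with a median of 1.22. List medians were 1.44 for oligodendrocyte, 1.38 for neuron, 1.80 for astrocyte and 1.33 for endothelial markers. They were −1.51 for fibroblast and smooth muscle and −0.65 for microglia markers. Markers of other cell types moved with the same contrast, and the sums below are also of deposited intensities. Their summed intensity went from 30108 and 24458 to 84758 and 68439 for the oligodendrocyte list (7 of 10 named, all higher, with 3 still past the test on the values as deposited, and Cspg4 at background with AAPH alone). It went from 26784 and 22048 to 34552 and 35815 for the neuron list (7 of 10 named, 4 higher and 3 lower, with Tubb3 among the lower and Ncam1 at background with berberine), from 3694 and 3081 to 6130 and 6010 for the astrocyte list (5 of 9, all higher, 1 on the values as deposited), and from 33501 and 26229 to 74352 and 58914 for the fibroblast and smooth muscle list (5 of 7, 2 higher and 3 lower, with Col3a1 and Dcn at background with berberine). The endothelial list (3 of 6 named, all higher, 0 on the values as deposited) went from 1275 and 1134 to 1606 and 1712, and the microglia list (2 of 8 named, Csf1r higher from background and Cd68 lower to background) from 1062 and 925 to 200 and 272. Some of these sums rest on 1 or 2 bright probes. Acta2 alone went from 9988 and 7697 to 63944 and 51435 in the fibroblast and smooth muscle list, and Nefm from 6500 and 5825 to 30175 and 32159 in the neuron list, while Map2 went from 11046 and 8854 to 453 and 518. Sox10 and Mog made up most of the oligodendrocyte sum. The part of such cells in the falls of the 10 genes was not tested.

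Probe identifiers start with 1 of several prefixes, and direction moved with that prefix. All 4 mMC probes of the members and the single mMR probe fell, and of 6 PH_mM probes 4 fell and 2 rose. Among all named probes 57.5% of mMC, 60.7% of mMR and 36.8% of PH_mM probes fell, and the part of the prefix in the member results was not tested.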

How the data were processed

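Gene expression was measured on 4 single-colour arrays, 2 of cells with AAPH alone and 2 of cells with AAPH and berberine, grouped by sample title. Per the labels' protocols, RNA was column-purified and labelled with Cy5. The deposited table holds 1 linear intensity per probe and array, and the sources used here do not name its scanner, background correction or normalization. Per the file headers, the deposited sheet of 9800 called probes adds detection p-values, mean normalized intensities, a CV (a ratio, not used here), a log2 ratio G3/G1 and its p-value, and further sheets list terms with q-values and genes. The sheet's G1 means lay within 5% of the mean of the AAPH-alone arrays for 99.9% of probes, and its G3 means within 5% of the berberine arrays for 99.2%, so G1 was read as AAPH alone. Whole-series tables held 0 columns of other samples.

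Intensities were floored at 1, log2-transformed, quantile-normalized and fitted per probe with limma 3.58.1 (lmFit, eBayes; R 4.3.3). Every adjusted p-value is limma's, 2-sided, by Benjamini-Hochberg, and was called under 0.05. The adjustment ran over the 26423 probes, or over the smaller set fitted where dim probes were left out or a gene's probes were averaged. The fit was tested on simulated data in which few probes changed, equally often up and down, so the choice of scaling was not tested there. A gene in a list is represented by its brightest named probe (mean of the 4 arrays). All members and their probes are named, with the 3 genes of each list that are no members and have the smallest adjusted p, and the genes marked as singled out later. The members, lists and tests were chosen with earlier results of these data known. Probes with several symbols (83) or none (527) were left out of the lists. Symbols are those of the sheet, and promoter sequences are from RefSeq, build GRCm38.p6, matched by symbol for all 10 members. The cyclic loess alternative was chosen after seeing the data. The number of arrays limits the precision.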

Additional observations from a re-analysis of the deposited data

How the results depend on the processing

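Of 131 alternative values of member probes, 128 kept their direction and their side of the threshold. The dim-probe filters, the intensity trend and the replicate block reuse the same normalized values, so direction was fixed there and only the p-value could change. The other floor also gave the same differences. The exceptions among the 131 were Ppp1r15a on the values as deposited (0.22) and after cyclic loess (0.24), and Shmt2 as the mean of its probes (−0.02). The count of member probes called higher was therefore 1 under those 2 scalings, against 2. That of lower probes stayed at 9, except 7 under the stricter dim-probe filter, which left 2 probes out of the fit. The other dim-probe filter kept all 11. Higher calls over all probes numbered 3534 on the values as deposited and 5662 after cyclic loess, against 10635, and higher genes of all lists 17 on the values as deposited, against 28. The cause was not tested. With each array left out in turn, all probes called higher ran from 7110 to 9516 and lower from 4445 to 5992, member probes stayed at 2 higher and 9 lower, and list genes at 26 to 27 higher and 53 lower. There an arm of 1 array is assumed to vary like the other group.

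The replicate numbers of the titles pair the samples only by number, since nothing in the labels ties same-numbered arrays and their deviations from the group means had a correlation of −0.02 over probes. A fit with the replicate block called 9850 probes higher and 5708 lower and changed no call of a member probe. Signal near background limits the falls of Atf3, Sesn2, Psph and Aldh18a1 to bounds, which follow a rule and are not confidence limits.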
